A study of Mus musculus with 11 samples.

Results

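The disallowed genes of the β-cell were followed in 36 members, of 34728 genes in the deposited expression table. The members are a list of gene names and were not selected by a threshold on these values, although earlier results of the data were known when the list was drawn up, and *Aass* and *Ldha* are among the genes that the study itself singled out. Disallowed genes are housekeeping or widely expressed genes that mature β-cells keep almost silent. Classical members are *Ldha*, which makes lactate from pyruvate, and *Slc16a1*, which carries pyruvate and lactate across the plasma membrane; their silence keeps pyruvate for the mitochondria and prevents insulin release in answer to circulating pyruvate during exercise. The rest of the list holds enzymes, secreted proteins, receptors, transcriptional regulators and cytoskeletal proteins that are plentiful in other tissues, some of them mainly in certain cells such as leukocytes or mesenchymal cells.

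The RNA came from GFP+ cells sorted by flow cytometry from dispersed islets of mice on a mixed C57BL/6 x 129SV background, labelled as 8 weeks old. Compared were 11 libraries in 3 groups. The 3 WT libraries came from littermates with intact *Raptor* that also carried the RIP-Cre transgene and the *Rosa26* GFP reporter. The 4 diabetic βRapKOGFP libraries (labelled KO, without insulin pellet) came from mice in which floxed *Raptor* alleles, for the scaffold of mTOR complex 1, were deleted by the same Cre. The 4 euglycemic βRapKOGFP libraries (labelled KO with insulin treatment) had the same genotype, and slow-release insulin was implanted at 4 weeks of age and kept for 4 weeks. Insulin treatment was given to mutants alone, so no WT library shares it. The rat insulin promoter drives Cre in β-cells and in some neurons, and a GFP gate holds whatever cells recombined the reporter. Neither the labels nor the methods for RNA sequencing name the animals behind a library, so p-values here measure the spread between these libraries, which may be technical.

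FPKM of *Rptor*, the targeted gene, was 0.948, 1.36 and 1.79 in WT, between 0.485 and 0.937 in the diabetic libraries and between 0.423 and 0.623 in the euglycemic ones, with no overlap between WT and mutants; diabetic library 1 came closest to the WT range. FPKM is the number of sequenced fragments per length of transcript and per library size. The β-cell genes *Ins1*, *Ins2* and *Iapp* had their lowest values at 47726, 22121 and 28608 FPKM over the 11 libraries. Diabetic library 1 stood apart, with 25711 genes above 0 against 13095 to 17329 in the others, and 6547 genes above 0 in it alone against 18 to 102. The fewest genes above 0 were in euglycemic library 4. From the step between low values, 9497106 to 16644787 fragments per library were inferred, at which 1 fragment on a transcript of 1 kb was worth 0.0601 to 0.105 FPKM. How many fragments stand behind a value also depends on the length of the transcript.

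The label held for most of the list. In WT cells 28 of the 36 genes were below 1 FPKM in every library, and 4 of these (*Arhgdib*, *Maf*, *Pdgfra* and *Zfp36l1*) were listed at 0 in all of them. The median of the WT means was 0.124 FPKM, against 0.209 FPKM over all genes above 0 in any library and 4.93 FPKM over the genes that were tested. Against the label went 6 members, with 1 FPKM or more in every WT library. These were *C1qbp*, *Cat*, *Fxyd3*, *Hspb1*, *Oat* and *Zyx*. The highest was *Hspb1*, a small heat-shock chaperone, at 14.3, 36.05 and 23.9 FPKM in WT, and next came *C1qbp*, a mitochondrial matrix protein, at 17.2, 8.12 and 10.8 FPKM. A test across all genes was restricted to the 11251 genes with at least 1 FPKM in at least 3 libraries. It took in 11 members, and 25 lay below the minimum. At the inferred depth the WT values of these 25 rest on a median of 1.56 fragments (0 to 21.0), and their mutant values on a median of 5.09. Of the 11, *Acot7*, *Ldha* and *Fgf1* were below 1 FPKM in all WT libraries and entered through mutant libraries alone, *Fgf1* through the 4 diabetic ones, so their entry already required a difference. Altogether 17 members stayed below 1 FPKM in all 11 libraries, and 20 did so when diabetic library 1 was set aside.

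**Figure D1:**
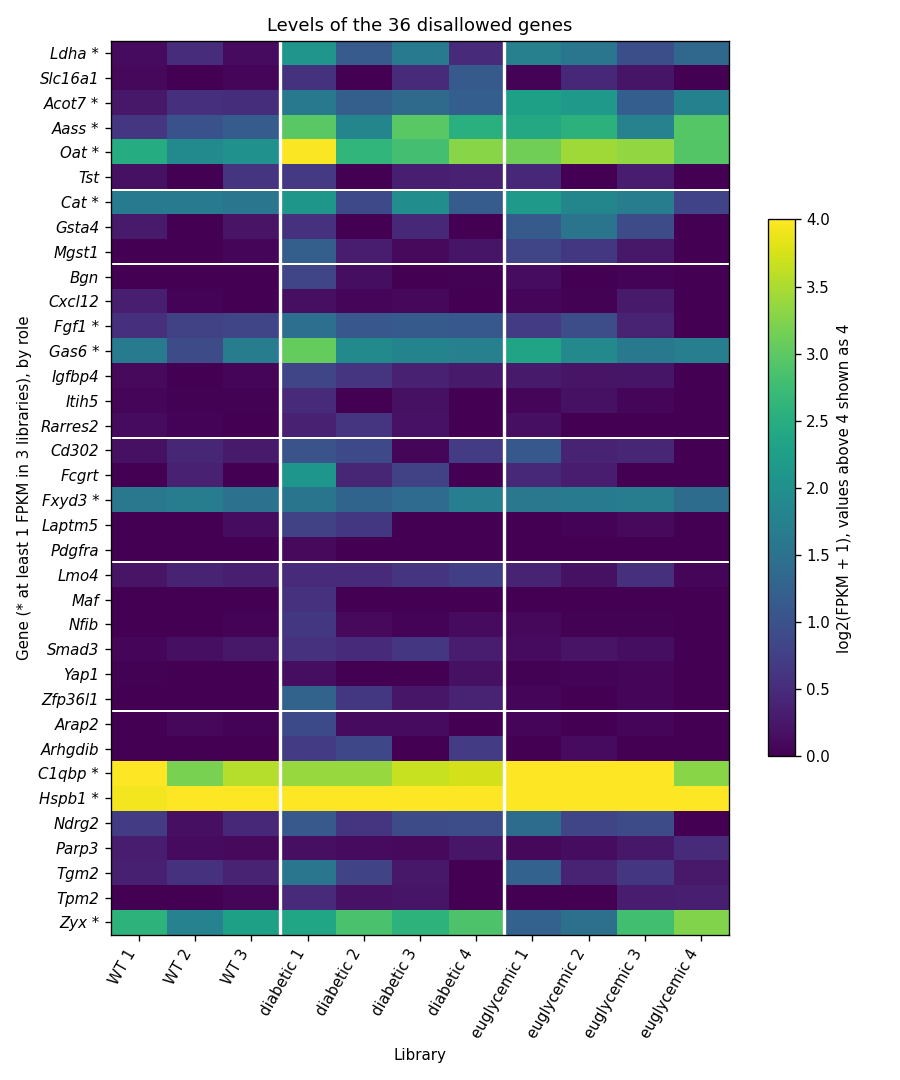
Levels of the 36 disallowed genes as log2(FPKM + 1), 1 row a gene and 1 column a library, with white lines between the 3 groups and between the roles; an asterisk marks the 11 genes with at least 1 FPKM in 3 libraries. Most rows are dark in WT, 4 enzymes (*Ldha*, *Acot7*, *Aass* and *Oat*) are brighter in both mutant groups, and diabetic library 1 holds the highest value of 18 of the 36 genes.

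Enzymes and transporters of fuel and amino-acid metabolism (6 members) held every gene that passed the test. *Aass* makes the first enzyme of lysine breakdown in mitochondria (chr6:23072173-23132986 in the GENCODE annotation of GRCm38, which is mm10, minus strand). Its FPKM was 0.554, 1.01 and 1.24 in WT, 6.84, 2.55, 6.89 and 4.81 in diabetic and 4.35, 4.96, 2.43 and 6.67 in euglycemic βRapKOGFP cells. All 8 mutant libraries lay above all WT libraries, and the mutant groups covered nearly the same range. WT cells averaged 0.935 ± 0.350 FPKM (SD, n = 3), diabetic cells 5.27 ± 2.06 FPKM (SD, n = 4) and euglycemic cells 4.60 ± 1.75 FPKM (SD, n = 4). On the log2(FPKM + 1) scale *Aass* was higher by 1.64 ± 0.32 (SE) in diabetic cells, which passed limma's test (adjusted p = 0.0327). In WT not every library reached 1 FPKM, so its entry into the test also needed a mutant library. With no minimum the adjusted p in diabetic cells was 0.133 (limma), which misses the threshold. *Aass* was higher by 1.49 ± 0.32 (SE) in euglycemic cells, which missed the threshold (limma, adjusted p = 0.0655). The mean of both mutant groups was higher than WT by 1.57 ± 0.28 (SE, limma, adjusted p = 0.0194). With no minimum this adjusted p was 0.101 (limma), which also misses the threshold. The difference between the mutant groups was 0.15 ± 0.29 (SE, limma, adjusted p = 0.797). The call in diabetic cells was lost without any single WT library (adjusted p = 0.130, 0.105 and 0.0831 without libraries 1, 2 and 3) and without diabetic library 1, 3 or 4 (0.0979, 0.0987 and 0.0612), while the log2 difference stayed between 1.49 and 1.89.

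*Acot7* makes an acyl-CoA thioesterase that splits long-chain acyl-CoA into fatty acid and CoA (chr4:152178134-152271855, plus strand). It stood at 0.195, 0.452 and 0.441 FPKM in WT, at 2.08, 1.31, 1.60 and 1.298 FPKM in diabetic and at 3.84, 3.44, 1.29 and 2.39 FPKM in euglycemic cells. Again every mutant library exceeded every WT library, and the highest values were in euglycemic libraries 1 and 2. *Acot7* was higher in euglycemic cells by 1.40 ± 0.25 (SE) on the log2 scale (limma, adjusted p = 0.0251) and was the single member called there. It had entered that test through mutant libraries alone, so this p by itself supports no difference. With a minimum of 0.1 FPKM, which its 3 WT libraries reach without the mutants, the adjusted p was 0.0393 (limma), and with no minimum it was 0.137 (limma), which misses the threshold. In diabetic cells the log2 difference was 0.91 ± 0.25 (SE, limma, adjusted p = 0.133). Both mutant groups together stood 1.16 ± 0.22 (SE) above WT on the log2 scale (limma, adjusted p = 0.0272). The same entry through mutants limits this p, and with no minimum it was 0.129 (limma), which misses the threshold. The log2 difference between diabetic and euglycemic cells was -0.49 ± 0.23 (SE, limma, unadjusted p = 0.0536, adjusted p = 0.249). The call in euglycemic cells was lost without WT library 2 or 3 (adjusted p = 0.113 and 0.131) or euglycemic library 1 or 2 (0.0718 and 0.0882), with log2 differences of 1.26 to 1.62 throughout.

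*Oat*, the ornithine aminotransferase that links ornithine to glutamate and proline (chr7:132557478-132576398, minus strand), was already expressed in WT. Its FPKM was 4.59, 2.77 and 3.05 in WT, 14.7, 5.17, 6.01 and 8.81 in diabetic and 7.74, 9.75, 9.17 and 6.59 in euglycemic cells. All mutant libraries lay above WT here too, and the euglycemic libraries lay inside the diabetic range. The lowest mutant library, diabetic library 2, was close to the highest WT library. The log2 difference from WT was 1.04 ± 0.29 (SE) in diabetic and 1.07 ± 0.29 (SE) in euglycemic cells, and neither passed (limma, adjusted p = 0.148 and 0.152).

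*Ldha* makes the A chain of lactate dehydrogenase (chr7:46841475-46855627, plus strand). Its FPKM was 0.0793, 0.422 and 0.0804 in WT, 3.24, 1.23, 2.13 and 0.403 in diabetic and 2.33, 1.98, 0.957 and 1.56 in euglycemic cells. The 4 euglycemic libraries lay above all of WT, but diabetic library 4 fell just below WT library 2. At the inferred depth the WT values rest on about 1.98, 9.09 and 1.98 fragments. The log2 difference was 1.1 ± 0.33 (SE) in diabetic and 1.17 ± 0.33 (SE) in euglycemic cells, and neither passed limma's test (adjusted p = 0.164 and 0.152). Without diabetic library 4, the one that overlaps WT, the first became 1.38 (limma, adjusted p = 0.0479). As *Ldha* entered the test through mutant libraries alone, that p supports no difference. Of the 50-base stretches of *Ldha* transcripts, 9.03% also occur in another annotated gene, among them *Ldha-ps2*, so part of a low value could belong to a copy.

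*Slc16a1*, the monocarboxylate transporter that partners *Ldha* among the classical members (chr3:104638668-104658462, plus strand), stayed low. It was at 0.0657, 0 and 0.05 FPKM in WT, at 0.504, 0, 0.409 and 1.18 FPKM in diabetic and at 0.0271, 0.365, 0.165 and 0 FPKM in euglycemic cells. Diabetic libraries 1, 3 and 4 stood above the rest, yet 1 library in each group was listed at 0. The difference on the log2(FPKM + 1) scale was 0.50 in diabetic and 0.12 in euglycemic cells, and neither was larger than the spread between libraries (exact permutation test, two-sided, p = 0.143 and 0.429, where 0.0286 is the smallest p for 4 against 3). *Tst*, a mitochondrial sulfurtransferase, completed the group between 0 and 0.539 FPKM in WT and between 0 and 0.593 FPKM in mutants.

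**Figure D2:**
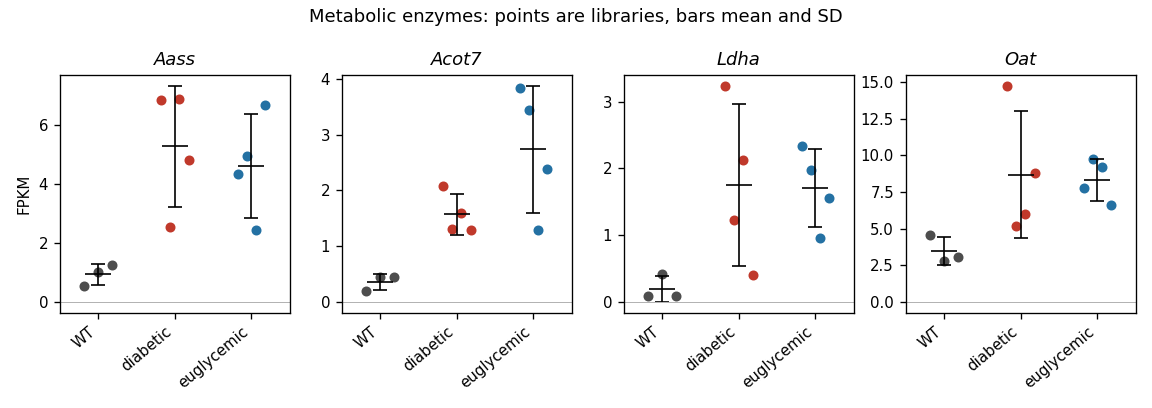
FPKM of 4 metabolic enzymes by group; each point is a library, and bars give the mean and SD of 3 WT, 4 diabetic and 4 euglycemic βRapKOGFP libraries. *Aass*, *Acot7* and *Oat* are higher in each of the 8 mutant libraries than in any WT library, and *Ldha* overlaps through diabetic library 4 (0.403 FPKM).

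The stretch just upstream of these 5 genes is printed here because *Ldha* and *Slc16a1* are the classical pair, the other 3 were higher in every mutant than in every WT library, and the 5 differ in the E-box, the site of MYC and related basic helix-loop-helix factors. The sequences are the 250 bases before the RefSeq start in GRCm38.p6, written 5′ to 3′ along the gene, with the E-box CACGTG in capitals. They cover chr7:46845554-46845803 (plus strand) for *Ldha*, chr3:104638414-104638663 (plus) for *Slc16a1*, chr6:23132987-23133236 (minus) for *Aass*, chr4:152185358-152185607 (plus) for *Acot7* and chr7:132576399-132576648 (minus) for *Oat*.
Ldha: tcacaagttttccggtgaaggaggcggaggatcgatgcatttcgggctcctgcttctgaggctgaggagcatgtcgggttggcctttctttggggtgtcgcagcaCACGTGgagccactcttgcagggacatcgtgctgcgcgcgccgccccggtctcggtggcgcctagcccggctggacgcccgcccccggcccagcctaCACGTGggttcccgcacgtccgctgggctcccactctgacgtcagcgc
Slc16a1: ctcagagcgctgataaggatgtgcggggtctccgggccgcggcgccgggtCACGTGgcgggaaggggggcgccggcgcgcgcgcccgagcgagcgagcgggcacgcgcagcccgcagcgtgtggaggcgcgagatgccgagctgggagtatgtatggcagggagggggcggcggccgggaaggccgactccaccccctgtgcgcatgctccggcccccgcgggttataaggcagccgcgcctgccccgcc
Aass: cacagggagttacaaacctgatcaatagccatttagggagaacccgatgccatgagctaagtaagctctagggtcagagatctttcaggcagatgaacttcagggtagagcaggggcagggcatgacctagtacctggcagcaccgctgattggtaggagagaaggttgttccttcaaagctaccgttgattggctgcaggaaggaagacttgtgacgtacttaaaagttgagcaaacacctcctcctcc
Acot7: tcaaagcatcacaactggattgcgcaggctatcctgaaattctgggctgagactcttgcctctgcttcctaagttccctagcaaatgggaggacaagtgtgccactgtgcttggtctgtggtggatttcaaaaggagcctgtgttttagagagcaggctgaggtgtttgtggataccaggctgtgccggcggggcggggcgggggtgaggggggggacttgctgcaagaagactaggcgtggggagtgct
Oat: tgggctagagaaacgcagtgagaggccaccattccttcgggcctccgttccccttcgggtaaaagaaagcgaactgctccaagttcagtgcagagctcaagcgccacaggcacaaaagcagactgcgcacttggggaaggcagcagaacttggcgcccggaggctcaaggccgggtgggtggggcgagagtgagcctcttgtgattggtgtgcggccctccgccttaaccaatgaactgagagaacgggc

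CACGTG, which reads the same on both strands, began 145 and 48 bases before the *Ldha* start and 200 bases before the *Slc16a1* start. The letters were absent from the windows of *Aass*, *Acot7* and *Oat*. RefSeq starts were matched for 29 of the 36 members, and the 250 bases before each start were searched. CACGTG was found for 3 of these genes (*Ldha*, *Slc16a1* and *Yap1*), against 6.02% of 32851 windows. Members were counted as genes with the letters before any of their starts. The shares are of single windows, so the 2 are not strictly alike. The GC box GGGCGG on either strand, which can share bases with a neighbouring GC box, was found for 18 of 29 member genes against 32.7% of all windows. TGATGNAA, letters of the amino acid response element, was found on either strand for 0 of 29 member genes against 3.45% of all windows. *Ldha* has a second start in the table, and its window and that of *Acot7* lie inside the gene bounds given above, since longer transcripts begin upstream. A match here is a description of letters and not a bound site.

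A gene was called where limma's Benjamini-Hochberg adjusted p over all 11251 genes was at most 0.05 and the change at least 1.5-fold on the log2(FPKM + 1) scale. In diabetic against WT cells 0.969% of all genes were called in either direction and 0.471% as higher, and of the members *Aass* was called, as higher. In euglycemic against WT cells 0.551% of all genes were called, 0.356% as higher, and *Acot7*, which had entered through mutant libraries alone, was the member called, as higher. Both comparisons use the same 3 WT libraries. With the mutant groups averaged, 1.05% of all genes were called, 0.533% as higher. *Aass* and *Acot7* were among these, but *Acot7* had entered through mutant libraries alone. With no minimum neither was called (limma, adjusted p = 0.101 and 0.129). Between diabetic and euglycemic cells limma called 0 members, against 0.00889% of all genes (1 gene), and *Fgf1* was the 1 member with an unadjusted p of at most 0.05, as higher, against 10.6% of all genes, but it had entered the test through diabetic libraries alone.

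**Figure D3:**
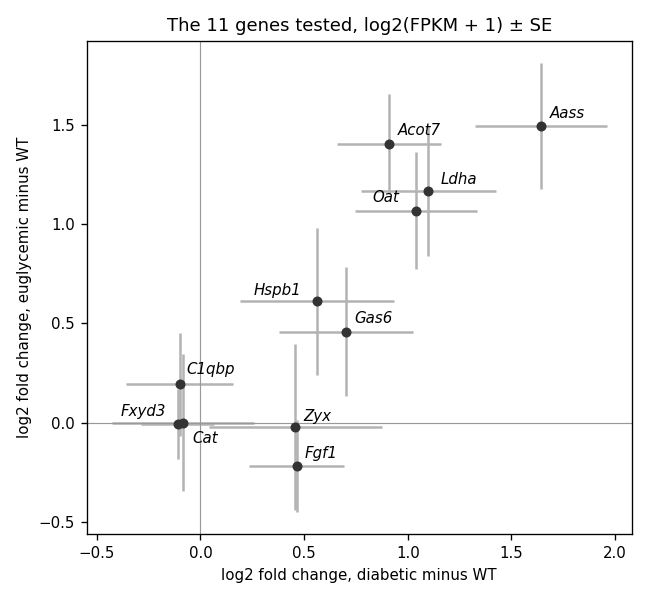
Log2 fold change on the log2(FPKM + 1) scale of the 11 disallowed genes tested, diabetic minus WT on the horizontal and euglycemic minus WT on the vertical axis; points are estimates, bars are SE, and both axes share the WT libraries. *Aass*, *Acot7*, *Ldha* and *Oat* lie at 0.91 to 1.64 on the first axis and 1.07 to 1.49 on the second, while *C1qbp*, *Cat* and *Fxyd3* lie between -0.11 and 0.19 on both.

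Across the whole list, every diabetic library lay above every WT library for 11 of the 36 genes, and for the same 11 without diabetic library 1. Of these, 5 had been tested (*Aass*, *Oat* and *Gas6*, and *Acot7* and *Fgf1*, which entered through mutants), where the share over all tested genes was 6.67%, and 6 lay below the minimum (*Igfbp4*, *Lmo4*, *Mgst1*, *Nfib*, *Smad3* and *Zfp36l1*), where the share over all genes below it was 2.06%. Without diabetic library 1 these shares were 7.87% and 2.37%. For euglycemic cells the number was 4 (*Aass* and *Oat*, and *Acot7* and *Ldha*, which entered through mutants), beside 5.91% of tested genes and 0.842% below the minimum. For 3 genes, *Aass*, *Oat* and *Acot7* (the last entered through mutants), all 8 mutant libraries were above WT (1.9% of tested genes, and 2.17% without diabetic library 1). The minimum favoured a place above WT for genes that entered through mutants, so nothing is read from their part in these numbers. No member lay wholly below WT in any of these comparisons, and 17 of the 25 below the minimum could not, since they were listed at 0 in a WT library. Nothing is read from that number, which stands beside 6.88% of tested genes and 1.03% of those below the minimum in diabetic cells and 5.02% and 1.94% in euglycemic cells. The median difference over all 36 was 0.29 on the log2(FPKM + 1) scale in diabetic and 0.042 in euglycemic cells, beside 0.056 and 0 over all genes above 0 in a library. Without diabetic library 1 the first became 0.20, beside 0 over all genes.

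Of the peroxide and glutathione enzymes (3 members) *Cat* was the 1 tested, and limma did not call it. *Cat*, catalase, which breaks down hydrogen peroxide, was expressed in WT at 1.98 to 2.12 FPKM and ranged from 0.848 to 3.35 FPKM in diabetic and from 0.738 to 3.46 FPKM in euglycemic cells. Its log2 difference from WT was -0.085 ± 0.34 (SE) and 0.0014 ± 0.34 (SE). *Gsta4*, a glutathione transferase for lipid aldehydes, was at 0 to 0.228 FPKM in WT and 0 to 0.485 FPKM in diabetic cells, and its highest values were 1.19, 1.90 and 0.904 FPKM in euglycemic libraries 1 to 3, with library 4 listed at 0. *Mgst1*, a membrane-bound glutathione transferase, was at 0, 0 and 0.0456 FPKM in WT and from 0.0745 to 1.32 FPKM in diabetic cells; without diabetic library 1 its log2 difference from WT fell from 0.44 to 0.20.

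The secreted and matrix proteins (7 members) included *Gas6*, the vitamin K-dependent ligand of the Axl and Mer receptors. *Gas6* stood at 2.13, 0.909 and 2.25 FPKM in WT, 7.31, 2.76, 2.48 and 2.36 FPKM in diabetic and 4.03, 2.70, 2.05 and 2.27 FPKM in euglycemic cells. Diabetic library 1 was far above the other 3, which were only slightly above WT. The log2 difference was 0.70 ± 0.32 (SE) in diabetic cells (limma, adjusted p = 0.418) and 0.46 ± 0.32 (SE) in euglycemic cells (limma, adjusted p = 0.543), and the first was 0.39 without diabetic library 1. *Igfbp4*, a binding protein that holds insulin-like growth factors, was at 0.0715, 0 and 0.0483 FPKM in WT, 0.776, 0.519, 0.296 and 0.224 FPKM in diabetic and 0.226, 0.154, 0.174 and 0 FPKM in euglycemic cells (diabetic against WT, exact permutation test, p = 0.0571). The chemokine *Cxcl12*, the proteoglycan *Bgn*, the hyaluronan-binding *Itih5* and *Rarres2*, which encodes chemerin, stayed below 1 FPKM everywhere, and *Cxcl12* was highest in WT library 1 (0.258 FPKM).

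Of the membrane and receptor proteins (5 members) *Fxyd3* was the 1 tested, and limma did not call it. *Fxyd3*, a regulator of the sodium pump, was steady at 1.83 to 2.21 FPKM in WT, 1.45 to 2.27 FPKM in diabetic and 1.68 to 2.25 FPKM in euglycemic cells. Its log2 differences were -0.11 ± 0.18 and -0.0079 ± 0.18 (SE), and 42.5% of its exonic bases overlap *Lgi4* on the other strand. *Fcgrt*, the neonatal Fc receptor, reached 3.31 FPKM in diabetic library 1 and no more than 0.708 FPKM elsewhere. *Laptm5*, a lysosomal protein of blood cells, was at 0.706 and 0.574 FPKM in diabetic libraries 1 and 2 and at or below 0.0935 FPKM in the rest. *Cd302*, a C-type lectin receptor, ranged from 0 to 1.16 FPKM, and *Pdgfra*, a growth factor receptor of mesenchymal cells, was above 0 in diabetic library 1 (0.0745 FPKM) and euglycemic library 3 (0.0044 FPKM) alone.

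All 6 transcription and RNA regulators were low, at most 0.304 FPKM in any WT library, and none reached the minimum for the test. *Smad3* and *Zfp36l1* are described here because of their values. *Smad3*, which carries TGF-β signals to the genome, was at 0.0508, 0.117 and 0.193 FPKM in WT, 0.486, 0.392, 0.556 and 0.239 FPKM in diabetic and 0.0838, 0.153, 0.105 and 0 FPKM in euglycemic cells. Diabetic cells did not overlap either other group, and euglycemic cells lay in the WT range or below. The log2 difference was 0.34 between diabetic and WT cells (exact permutation test, two-sided, p = 0.0571) and 0.38 between diabetic and euglycemic cells (exact permutation test, p = 0.0286, the smallest that 4 against 4 allow).

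*Zfp36l1*, which binds AU-rich mRNA and promotes its decay, was listed at 0 in all WT libraries. It stood at 1.42, 0.561, 0.177 and 0.311 FPKM in diabetic and 0.0488, 0, 0.0406 and 0 FPKM in euglycemic cells. Against WT the exact permutation test gave p = 0.0571. The log2 difference between diabetic and euglycemic cells was 0.60 (exact permutation test, p = 0.0286) and was 0.39 without diabetic library 1. Of its exonic bases, 55.9% overlap *Gm26669* on the other strand, and the strand used in counting was not given, so reads of the pair cannot be told apart. *Lmo4*, a LIM-only transcriptional cofactor, was at 0.153, 0.304 and 0.256 FPKM in WT and 0.406, 0.385, 0.512 and 0.679 FPKM in diabetic cells, a log2 difference of 0.27 (exact permutation test, p = 0.0286). *Nfib*, a nuclear factor I transcription factor, was above WT in all diabetic libraries but reached 0.569 FPKM in library 1 and at most 0.0830 FPKM in the others. *Maf*, a basic leucine zipper transcription factor, was at 0.485 FPKM in diabetic library 1 and at or below 0.0069 FPKM elsewhere, and *Yap1*, the Hippo pathway coactivator, did not exceed 0.137 FPKM. An exact p of at most 0.05 as higher in diabetic than in WT cells was found for 1 of the 25 members below the minimum (*Lmo4*), and for 0.607% of all genes above 0 but below it. With all genes kept in limma no such member had an adjusted p under 0.342 in that comparison, where 0.0803% of all genes were called.

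Cytoskeletal, chaperone and signalling proteins (9 members) held the 2 most abundant genes. *Hspb1* stood at 27.6, 24.3, 40.5 and 53.0 FPKM in diabetic and 33.1, 65.8, 28.1 and 26.9 FPKM in euglycemic cells. All groups overlapped, and the log2 differences from WT were 0.56 ± 0.37 and 0.61 ± 0.37 (SE; limma, adjusted p = 0.601 and 0.480). Of its 50-base stretches, 48.8% also occur in another gene, among them the pseudogene *Hsp25-ps1*. *C1qbp* was at 9.46, 9.43, 11.7 and 12.4 FPKM in diabetic and 15.2, 15.2, 15.2 and 8.80 FPKM in euglycemic cells. Both groups lay inside the WT range, with log2 differences of -0.099 ± 0.26 and 0.19 ± 0.26 (SE).

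*Zyx*, a focal adhesion protein, varied most in euglycemic cells, at 1.39, 1.77, 5.91 and 8.45 FPKM, against 2.42 to 5.02 FPKM in WT and 4.12 to 6.40 FPKM in diabetic cells. *Ndrg2*, a stress-responsive cytoplasmic protein, *Tgm2*, a transglutaminase, and *Arap2*, a GTPase-activating protein, ranged up to 1.67, 1.96 and 0.862 FPKM in mutants, the last 2 with their maximum in diabetic library 1. *Arhgdib*, a signalling protein that abounds in leukocytes, was listed at 0 in WT and reached 0.628, 0.821 and 0.612 FPKM in diabetic libraries 1, 2 and 4. *Tpm2*, a tropomyosin, and *Parp3*, an ADP-ribosyltransferase of DNA repair, stayed below 0.5 FPKM in every library.

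*Fgf1*, a growth factor without a signal peptide, stood apart in diabetic cells. Its level was 0.475, 0.735 and 0.793 FPKM in WT, 1.77, 1.13, 1.18 and 1.15 FPKM in diabetic and 0.640, 0.934, 0.318 and 0 FPKM in euglycemic cells. Each diabetic library exceeded each WT and each euglycemic library, and the euglycemic libraries spread around WT. Diabetic minus euglycemic was 0.68 ± 0.21 (SE) on the log2 scale and was not called (limma, adjusted p = 0.142), and diabetic minus WT was 0.46 ± 0.23 (SE, limma, adjusted p = 0.457). Without diabetic library 1 the first was 0.59. Since *Fgf1* reached 1 FPKM in no WT or euglycemic library, its entry into the test rested on the group where it was high, and these p values support no difference. Every diabetic library lay above every euglycemic library for 3 members, *Fgf1*, *Smad3* and *Zfp36l1*, with or without diabetic library 1. Nothing is read from the place of *Fgf1* in this number. The shares over all genes were 6.85% of those tested and 1.31% of those below the minimum, and 7.54% and 1.63% without that library.

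**Figure D4:**
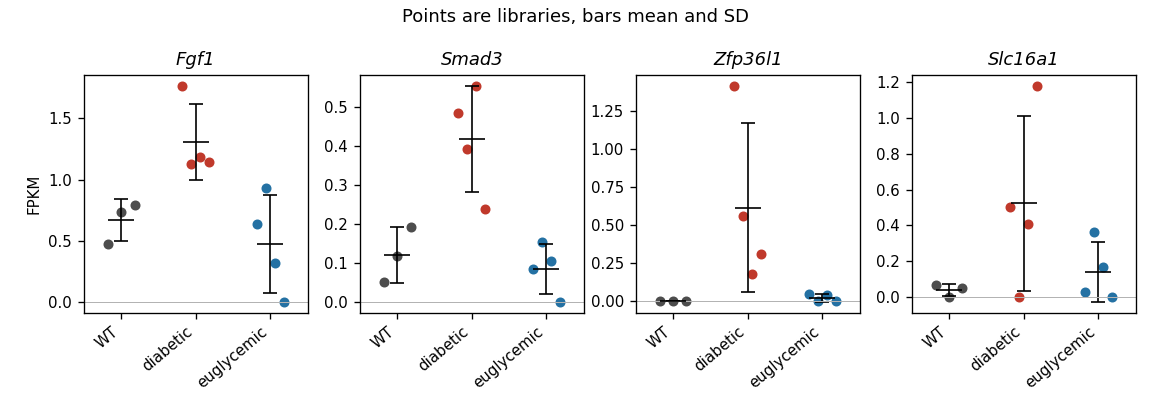
FPKM of *Fgf1*, *Smad3*, *Zfp36l1* and *Slc16a1* by group; each point is a library, and bars give the mean and SD of 3 WT, 4 diabetic and 4 euglycemic libraries. For the first 3 genes each diabetic point lies above all WT and euglycemic points, and for *Slc16a1* 1 diabetic library is listed at 0.

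Diabetic library 1 held the highest value of 4 of the 11 members tested, where the share over all tested genes was 12%, and of 14 of the 25 below the minimum, where it was 64.4%. The 25 genes summed to 1.90 to 2.47 FPKM in WT, 19.0 FPKM in diabetic library 1, 5.21 to 7.03 FPKM in the other diabetic libraries, and 8.15, 5.32, 5.05 and 0.929 FPKM in euglycemic libraries 1 to 4. The 8 mesenchymal markers summed to 0 to 0.641 FPKM in WT, 24.7 FPKM in diabetic library 1, 1.08 to 7.16 FPKM in the other diabetic libraries and 0 to 0.959 FPKM in euglycemic ones. The 8 endothelial markers summed to 0.0487 to 1.60, 48.9, 7.67 to 15.1 and 0.0436 to 2.43 FPKM in the same order. Both sums were thus higher in diabetic than in WT and euglycemic libraries, as *Fgf1*, *Smad3* and *Zfp36l1* were, but not every marker was. *Plvap* alone made up 39.9, 6.14, 6.35 and 14.0 FPKM of the endothelial sum in the diabetic libraries, and *Tie1* was listed at 0 in all of them but library 1. In diabetic libraries 3 and 4, 3 and 5 of the 8 mesenchymal markers were listed at 0. The 9 leukocyte markers summed highest in diabetic library 3, at 198 FPKM against 158 FPKM in diabetic library 1, and *C1qa* made up 196 FPKM of the first. *C1qa* was above 0 in all libraries, at 33.3 to 41.4 FPKM in WT, and *Cd79a* was at 20.1, 8.20 and 9.22 FPKM in WT and lower in every mutant library. Without this pair, set aside after their values were seen, the markers reached 79.5 FPKM in diabetic library 1, where *Ptprc*, listed at 0 in the other 10, was at 0.686 FPKM. They summed to 20.3 FPKM in diabetic library 2 and 8.18 FPKM in euglycemic library 4, against 0.0718 to 1.84 FPKM in WT. Diabetic library 2 had *Laptm5* at 0.574 and *Arhgdib* at 0.821 FPKM. In diabetic library 4 they summed to 0.275 FPKM with *Arhgdib* at 0.612 FPKM, and in euglycemic library 4 both members were listed at 0. The part of these cells in the members' values was not tested, and in bulk RNA of sorted cells a few cells rich in a transcript cannot be told apart from a low level in every cell.

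**Figure D5:**
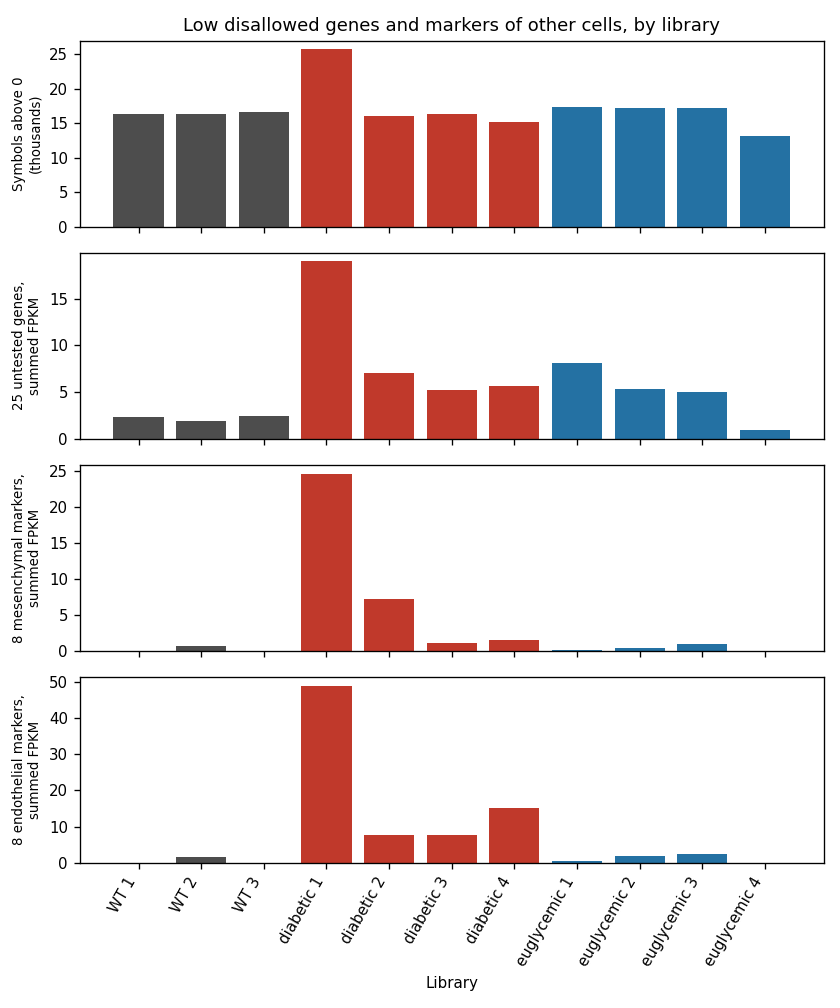
Bars give, for each library, the number of genes above 0, the summed FPKM of the 25 disallowed genes below the minimum, and the summed FPKM of 8 mesenchymal and 8 endothelial markers (grey WT, red diabetic, blue euglycemic). Diabetic library 1 is highest in all 4 panels (25711 genes, 19.0, 24.7 and 48.9 FPKM).

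Acinar markers followed another pattern. All 10 together summed to 4.24 to 35.8 FPKM in WT, 1055 to 2124 FPKM in diabetic libraries 1 to 3 and 814 and 3842 FPKM in euglycemic libraries 1 and 4, but to 23.7, 18.2 and 17.7 FPKM in diabetic library 4 and euglycemic libraries 2 and 3. In those 3 low libraries *Aass* was at 4.81, 4.96 and 2.43 FPKM, *Acot7* at 1.298, 3.44 and 1.29 FPKM and *Oat* at 8.81, 9.75 and 9.17 FPKM, while *Ldha* was at 0.403, 1.98 and 0.957 FPKM, the first of these below WT library 2. The part of acinar cells in these values was not tested. *Gcg*, *Ppy* and the sum of the delta-cell list were higher in every mutant than in every WT library, as the 3 enzymes were. *Gcg* was at 734 to 2116 FPKM in WT and 3432 to 22921 FPKM in mutants. Among 5 duct markers *Krt19* and *Spp1* were also higher in every mutant than in every WT library, while *Krt7*, *Cftr* and *Muc1* overlapped WT. The part of these islet and duct cells in the enzymes' values was not tested.

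Of 21 genes of lactate and pyruvate handling 19 were tested, and limma called 0 in diabetic and 0 in euglycemic cells (0.969% and 0.551% of all genes), with 1 and 2 at an unadjusted p of at most 0.05, against 11.9% and 13.9% of all genes. *Ldhb*, the partner chain of lactate dehydrogenase, went from 11.3 ± 1.40 FPKM in WT (SD, n = 3) to 6.95 ± 2.11 in diabetic and 8.69 ± 3.85 in euglycemic cells (SD, n = 4), log2 differences of -0.67 and -0.46 (limma, adjusted p = 0.483 and 0.568). *Mpc1*, a subunit of the mitochondrial pyruvate carrier, had a log2 difference of -0.55 in diabetic cells (limma, adjusted p = 0.403), and *Pcx*, pyruvate carboxylase, one of -0.78 in euglycemic cells (limma, adjusted p = 0.259). *Bsg*, the chaperone of monocarboxylate transporters, had a log2 difference of 0.44 in euglycemic cells (limma, adjusted p = 0.349). Of 13 genes of DNA methylation, Polycomb, Rfx and microRNA machinery, which is known to hold genes silent, 10 were tested and limma called 0 in either comparison, with 0 and 2 at an unadjusted p of at most 0.05, beside the same shares of all genes. The lowest p values there were those of *Rfx3* in diabetic cells, with a log2 difference of 0.49 (limma, adjusted p = 0.454), and *Dicer1* in euglycemic cells, with -0.53 (limma, adjusted p = 0.323).

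A further 11 disallowed genes were chosen by the study on these same libraries, so their direction is not independent evidence. Of these, 8 were tested. *Serpina7*, a thyroxine-binding globulin, and *Gucy2c*, the guanylin receptor, were called in both mutant groups, with log2 differences of 4.44 and 2.06 in diabetic and 4.39 and 2.18 in euglycemic cells (limma). *Gm2115*, *Gfra1* and *Trf* were called against WT in diabetic and not in euglycemic cells, but *Gfra1* entered the test through diabetic and *Trf* through mutant libraries alone, so their calls are no support. Diabetic minus euglycemic was called for none of the 8 (limma, lowest adjusted p = 0.156, with 2 at an unadjusted p of at most 0.05). *Hk1*, a hexokinase, varied from 0 to 0.750 FPKM in mutants against 0 to 0.0340 FPKM in WT.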

How the data were processed

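RNA-seq libraries of sorted GFP+ islet cells were deposited by the authors as 1 table of FPKM values per gene, normalized to transcript length and sequenced fragments. Per the labels the reads were processed with HISAT2 2.0.4, StringTie 1.3.0 and edgeR on mm10, whereas the study's methods name Tophat, Cufflinks and Cuffdiff, and which of them made the table is not given in the sources used here. FPKM are not counts, so 3 WT, 4 diabetic and 4 euglycemic columns were fitted together with limma 3.58.1 (R 4.3.3) on log2(FPKM + 1), with a mean-variance trend, over 11251 genes with at least 1 FPKM in at least 3 libraries. This scale understates changes of low genes. Benjamini-Hochberg adjustment covered all genes tested. Of 34745 entries 34267 were matched to a symbol, and 17 lower duplicates were dropped. The 25 members below the minimum were compared by exact permutation of libraries, two-sided and unadjusted. Fragment numbers were inferred from steps of low values in 4490 single-exon genes, where 92.7 to 97.1% of values were whole within a tolerance of 0.02 fragments. Given in every library were members called in any comparison, *Ldha*, *Slc16a1*, those with the 5 smallest p against WT in each mutant group, the 2 with the largest difference between mutants and the 2 highest in WT; *Smad3*, *Zfp36l1*, *Igfbp4*, *Lmo4* and other members with values were singled out after their values were seen. Members, lists and tests were chosen with earlier results of these data known. Replicate numbers did not pair the libraries: same-numbered libraries correlated at a mean r of -0.132 (10 pairs, -0.368 to 0.212), different numbers at 0.0433 (30 pairs). The scripts were tested on simulated data.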

Additional observations from a re-analysis of the deposited data

Results flagged for a closer look

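In 72 groups of 4 libraries (36 genes in diabetic and in euglycemic cells), 10 held a library separated from the other 3 by a gap beyond Dixon's critical value for the range of 4 values, where chance gives about 3.6 for normally distributed values. In 5 of the 10 the other 3 libraries were listed at 0, so that any value above 0 is separated by construction and the chance number does not apply. In 6 of them diabetic library 1 was the high one. *Gas6* was at 7.31 FPKM there against 2.36 to 2.76 in the other diabetic libraries, *Fgf1* at 1.77 against 1.13 to 1.18, *Nfib* at 0.569 against 0.0298 to 0.0830, *Arap2* at 0.862 against 0 to 0.0864, and *Maf* at 0.485 and *Pdgfra* at 0.0745 where the others were listed at 0. In euglycemic cells *C1qbp* was low in library 4, at 8.80 FPKM against 15.2 in the other 3, the library with the fewest genes above 0. *Rarres2* in library 1 (0.116 FPKM), *Arhgdib* in library 2 (0.0853 FPKM) and *Pdgfra* in library 3 (0.0044 FPKM) were above 0 where the other euglycemic libraries were listed at 0, which at this depth is a difference of a few fragments.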

How the results depend on the processing

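Calls among the members were few and sensitive to the setting, while differences from WT of *Aass*, *Acot7*, *Ldha* and *Oat* kept their direction in all settings run. Of 22 settings *Aass* was called in 14 for diabetic cells (adjusted p 0.00245 to 0.133) and *Acot7* in 15 for euglycemic cells (0.0013 to 0.137). With no filter 0 members were called in any comparison. The genes called were then 22 (diabetic against WT), 13 (euglycemic against WT), 23 (both mutants) and 0 (diabetic against euglycemic). The median over all 36 was then 0.042 in euglycemic cells and 0.16 in both. With a minimum of 0.1 FPKM the median over the members that reached it was 0.12 and 0.28. Library weights called 4, 5 and 4 members (diabetic, euglycemic, both) and 551, 2287, 1116 and 1212 genes, the last between mutants. With the replicate number as a block 0 members and 45, 20, 53 and 0 genes were called. A pseudocount of 0.1 called 2 members in euglycemic cells and 0 genes between mutants, TPM and median-of-ratios scaling 0 genes between mutants, and a fit to only the groups compared 0 members and 17 genes in euglycemic cells and 6 genes between mutants. Leaving out 1 library at a time gave 0 to 1, 0 to 2, 0 to 0 and 0 to 3 members (diabetic, euglycemic, between mutants, both) and 26 to 210, 12 to 536, 0 to 378 and 30 to 177 genes, with 210 without euglycemic library 4, and 536 and 378 without WT library 1. The median over the members tested ranged 0.49 to 0.73, 0.21 to 0.59, -0.12 to 0.13 and 0.33 to 0.63. Members below the minimum with every library above WT numbered 6 to 10, 0 to 6 and 0 to 2, the highest without diabetic library 4 (10) and euglycemic library 4 (6 and 2); without diabetic library 1 and euglycemic library 4, chosen after seeing the data, they were 6 and 2 for euglycemic and both. Signs turned, over the same omissions and that of both libraries, for differences that passed no test as reported. These were *C1qbp* against WT (called in euglycemic cells with library weights alone, adjusted p = 0.0216; diabetic -0.33 to 0.17, and 0.18 with weights; euglycemic -0.034 to 0.46; both -0.18 to 0.32), *Smad3* (-0.091 to 0.00027) and *Lmo4* (-0.095 to 0.068) in euglycemic cells, and between mutants *Ldha* (-0.33 to 0.22), *Aass* (-0.065 to 0.40), *Oat* (-0.39 to 0.15, and 0.078 with TPM), *Gas6* (-0.12 to 0.39), *Hspb1* (-0.25 to 0.24, and 0.071 with TPM) and *Mgst1* (-0.36 to 0.17). The causes were not tested. Depth limits the 25 members below the minimum, with a median of 1.56 fragments in WT.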
